A study of Homo sapiens with 10 samples.

Results

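The genes described here encode the respiratory chain, the protein complexes of the inner mitochondrial membrane that pass electrons from nutrients to oxygen and make ATP. They were chosen by gene symbol, with a pattern that takes the subunits written on mitochondrial DNA (MT-ND, MT-CO, MT-ATP and MT-CYB) and the nuclear families NDUF, SDH, UQCR, COX4 to COX8 and ATP5. Of 58381 gene rows, 131 matched and 100 were kept: 13 encoded in mitochondrial DNA (mtDNA) and 87 in the nucleus. The other 31 were pseudogene names ending in P and digits, or hyphenated read-through names. That ending was not applied to MT- symbols, because it would have dropped MT-ATP6 and MT-ATP8, which the pattern names. Applied to every symbol it leaves 98 genes.

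The study asked what disrupting a CTCF insulator does to gene expression in a tumour cell with an intact succinate dehydrogenase. CTCF is a DNA-binding protein found at many boundaries between chromosome loops. All libraries came from GIST-T1, an established human line from a metastasis of a gastrointestinal stromal tumour (GIST). The control carried the genotype WT, and the 4 derived lines carried the genotypes InsE, InsF, InsG and InsH, each with 2 libraries of polyadenylated RNA (10 in all). The labels do not say what was changed in each lettered line, whether a line was 1 clone, or if replicates were grown apart. The p-values therefore cover only library-to-library spread, possibly technical.

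The chain has 4 electron-carrying complexes and an ATP synthase. Complex I (NADH dehydrogenase), complex III (cytochrome bc1), complex IV (cytochrome c oxidase) and complex V (ATP synthase) are built from subunits of both genomes. Complex II (succinate dehydrogenase, SDH) is built from nuclear subunits alone, and its loss defines a class of GIST. The mtDNA is transcribed into long RNAs from both strands, which are then cut into mRNAs, tRNAs and rRNAs. Nuclear subunit genes are transcribed one by one, and many carry promoter sites for the factors NRF1, GABP (an ETS family factor) and YY1.

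By complex, the members comprised 7 mtDNA-encoded and 36 nuclear genes of complex I, 4 nuclear genes of complex II, 1 and 9 of complex III, 3 and 19 of complex IV, and 2 and 17 of complex V. NDUFA4 and its relative NDUFA4L2 were placed in complex IV, where NDUFA4 protein is found. ATP5S and ATP5SL (now DMAC2L and DMAC2) match the pattern but are not counted as ATP synthase subunits, and entered no complex. The mtDNA carries overlaps between members, and 2 are shown here because they decide which gene a read can be given to. MT-ATP6 also ends on the base where MT-CO3 starts (chrM:9207), which is not shown. In the GRCh38 sequence of GENCODE 29, MT-ATP8 and MT-ATP6 share 46 bases (chrM:8527-8572) and MT-ND4L and MT-ND4 share 7 (chrM:10760-10766). The stretches below begin 14 bases before each overlap, are read 5′ to 3′ on the plus strand, and have the start codon of the downstream gene in capitals.
MT-ATP8 into MT-ATP6, chrM:8513-8572: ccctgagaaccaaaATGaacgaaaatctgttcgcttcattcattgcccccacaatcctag
MT-ND4L into MT-ND4, chrM:10746-10766: ctaaacctactccaATGctaa

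Library totals ran from 9.40 to 42.5 M expected counts (RSEM's estimate of fragments per gene), 22.9 to 42.5 M in replicate 1 and 9.40 to 20.1 M in replicate 2. The GIST markers were present: KIT was at 2359 and 2324 CPM (counts scaled to library size with TMM factors) in the control and at 1176 to 1504 in the lines. The summed TPM (RSEM's level corrected for gene length and library size) of the 6 GIST markers ran from 1665 to 1686 in the control and from 995 to 1254 in the lines. KIT, ANO1, PRKCQ and FOXF1 fell on average over the lines, KIT with a log2 fold change of -0.80 ± 0.04 (SE; edgeR adjusted p = 2.78e-06). ETV1, named here after its values were seen, did not pass in the mean (-0.15 ± 0.06, edgeR adjusted p = 0.0908). It was called lower in InsE alone (-0.27 ± 0.07), a call lost without 3 of the libraries. PDGFRA, a receptor related to KIT and named after its values were seen, fell in InsE (-0.20 ± 0.05). It rose in InsG (0.32 ± 0.05) and InsH (0.20 ± 0.05). The InsE and InsH calls were lost without either control library or either library of the line (edgeR adjusted p up to 0.195), and that in InsG passed without any 1 library. Of 5 epithelial markers KRT19 was at 0 in all libraries, and their sum was 24.5 to 25.7 TPM in the control and 15.8 to 20.4 in the lines. The sums of 5 immune, 4 endothelial and 3 red cell markers reached at most 6.67, 0.69 and 0.97 TPM, with HBB at 0 throughout. How far these shifts took part in the results on the members was not tested.

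The mtDNA-encoded mRNAs were a larger share of RNA in InsE than in the control and a smaller share in the other 3 lines, while the nuclear members took a larger share in all 4. The 13 mtDNA genes held 3.60% and 3.54% of counts in the control libraries, 3.99% and 4.08% (InsE), 3.12% and 3.15% (InsF), 2.97% and 3.05% (InsG), and 3.05% and 3.07% (InsH). InsE lay above both control libraries and the other lines below them. Relative to the control mean, the shares were 1.13, 0.879, 0.843 and 0.857-fold for InsE, InsF, InsG and InsH. The 87 nuclear genes together held 0.785% ± 0.000235 (SD, n = 2) of counts in the control, and 0.888% ± 0.00419 (InsE), 0.853% ± 0.00622 (InsF), 0.830% ± 0.00962 (InsG) and 0.846% ± 0.00429 (InsH) in the lines, which is 1.06 to 1.13-fold of the control. These shares carry no test and no correction for library composition. Without that correction the typical gene rose too. Scaled by library size alone, the median log2 fold change over all genes tested was 0.06, 0.06, 0.06 and 0.07 in InsE, InsF, InsG and InsH. Over the 80 nuclear members tested it was 0.16, 0.11, 0.04 and 0.09. Fewer mitochondria or mtDNA copies per cell and less RNA per mtDNA copy cannot be told apart in the shares. Nor can fewer cells of a kind and less RNA per cell.

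**Figure D1:**
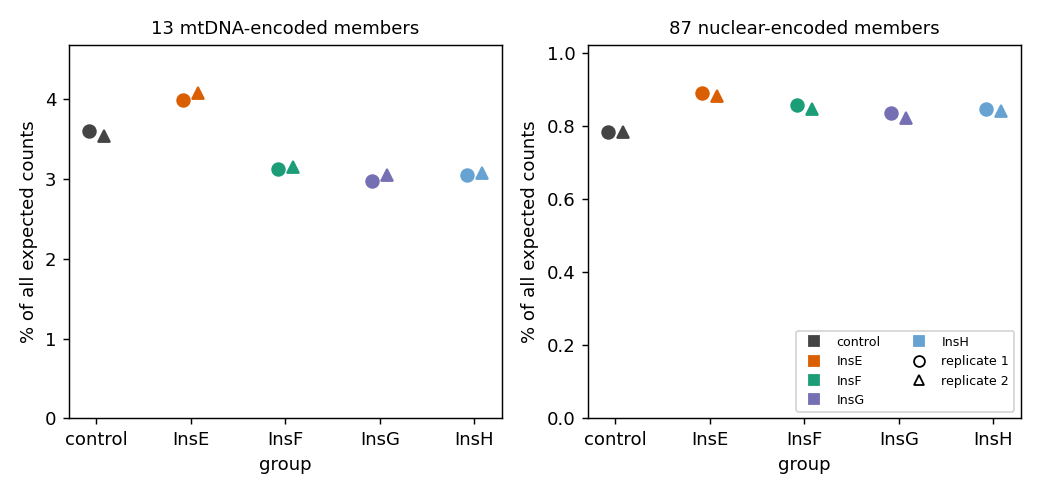
Percent of all expected counts (y axes, from 0) held by the 13 mtDNA-encoded members (left) and the 87 nuclear members (right) in each library, by group (x axes); circles are replicate 1 and triangles replicate 2. The mtDNA share is highest in InsE (3.99% and 4.08%) and below the control in InsF, InsG and InsH, and the nuclear share is above the control in all 4 lines.

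Gene by gene, most mtDNA-encoded mRNAs fell in InsF, InsG and InsH, and InsE stood apart. A gene was called changed at an edgeR adjusted p under 0.05 over 15554 genes tested. In InsF 8 of 13 fell, with a median log2 fold change of -0.20 (11.3% of all genes tested were called lower). In InsG 9 of 13 fell (median -0.29, background 10.5%), and in InsH 8 of 13 (median -0.26, background 9.46%). In InsE 3 rose (background 10.8% higher) and 1 fell (background 12.4% lower), with a median of 0.08. In the mean of the 4 lines 9 fell (median -0.15, background 14.5% lower). Over all genes tested the median was 0.01 in each of these comparisons. A difference among the 4 lines was called for 10 of the 13, against 13.2% of all genes. All comparisons with control rest on the same 2 control libraries. Without 1 library at a time, 2 of the 4 calls in InsE, 5 of 8 in InsF, 6 of 9 in InsG, 6 of 8 in InsH, 4 of 9 in the mean and 7 of 10 among the lines passed in every such fit.

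**Figure D2:**
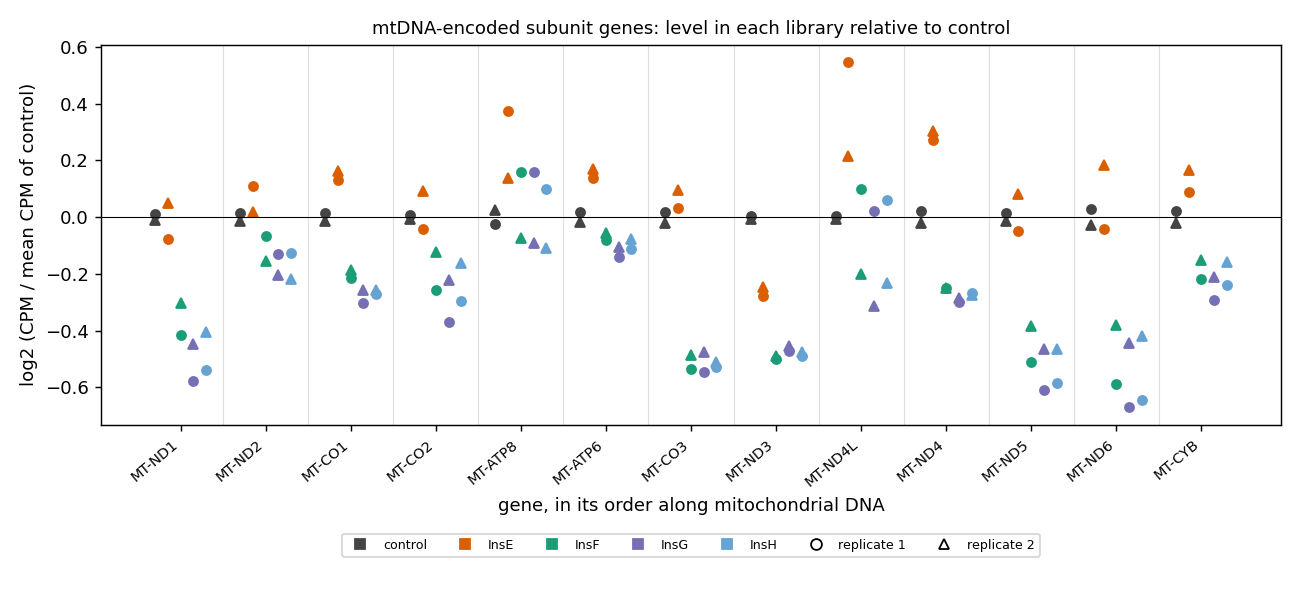
Level of each mtDNA-encoded gene in each library as log2 of its CPM over the mean CPM of the control (y axis), with genes in their order along mtDNA (x axis); colours are groups, circles replicate 1 and triangles replicate 2. InsE lies above the control for MT-ND4, and all 4 lines lie below it for MT-ND3; the replicates of the lines stand apart most for MT-ND4L, MT-ATP8 and MT-ND6.

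Among the mtDNA genes of complex I, MT-ND4 changed in opposite directions between lines. MT-ND4, a proton-pumping core subunit, stood at 6892 and 6693 CPM in the control, 8196 and 8388 (InsE), 5707 and 5716 (InsF), 5518 and 5575 (InsG) and 5644 and 5613 (InsH). Both InsE libraries lay above the control and all 6 others below it. The log2 fold changes were 0.29 ± 0.04, -0.25 ± 0.04, -0.29 ± 0.04 and -0.27 ± 0.04 (SE), all called, with edgeR adjusted p of 0.000592, 0.00127, 0.000613 and 0.00100. The difference among the lines had an edgeR adjusted p of 2.39e-05. Its fall in the mean of the lines (-0.13 ± 0.03) was lost without either control library (edgeR adjusted p up to 0.157).

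MT-ND3, which encodes a small core subunit next to the quinone site, fell in all 4 lines. It stood at 1225 and 1216 CPM in the control, 1008 and 1028 (InsE), 864 and 870 (InsF), 880 and 892 (InsG) and 870 and 878 (InsH). No line library reached the control. The log2 fold changes were -0.26 ± 0.04 (InsE), -0.49 ± 0.04 (InsF), -0.46 ± 0.04 (InsG) and -0.48 ± 0.04 (InsH), with edgeR adjusted p of 0.00154, 3.93e-05, 6.9e-05 and 5.8e-05, and each call passed without any 1 library.

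MT-ND1 and MT-ND5, core subunits at opposite ends of the membrane arm, fell in InsF, InsG and InsH and did not pass in InsE. MT-ND1 was at 2344 and 2310 CPM in the control, 2205 and 2409 in InsE, and 1558 to 1885 in the 6 libraries of the other lines. The InsE libraries lay on either side of the control and the others lay below it. Its log2 fold changes were -0.36 ± 0.07 in InsF, -0.51 ± 0.07 in InsG and -0.47 ± 0.07 in InsH, against -0.01 ± 0.07 in InsE (edgeR adjusted p = 0.924). MT-ND5 was at 3096 and 3038 CPM in the control, 2965 and 3243 in InsE, and 2011 to 2352 in the others. Here too InsE spanned the control, and the log2 fold changes were -0.45 ± 0.07, -0.53 ± 0.07 and -0.52 ± 0.07 in InsF, InsG and InsH. These calls of both genes passed without any 1 library.

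MT-ND6 is the only member written on the other mtDNA strand (chrM:14149-14673, minus strand), and its mRNA is known for having little or no poly(A) tail. Whether counting used strand is not stated, so reads from RNA of the opposite strand cannot be told apart from it. It was at 598 and 576 CPM in the control and at 369 to 451 in InsF, InsG and InsH. The log2 fold changes of -0.48 ± 0.11, -0.56 ± 0.11 and -0.53 ± 0.11 were the lowest of the 7 mtDNA genes of complex I in InsG and InsH. Its calls in these lines were lost without control replicate 1 or the line's own replicate 1, and in InsF also without control replicate 2 (edgeR adjusted p up to 0.0881). MT-ND2 did not pass against the control in any line, with log2 fold changes from -0.17 ± 0.05 in InsH to 0.06 ± 0.05 in InsE, and its call among the lines (edgeR adjusted p = 0.0392) was lost without 7 of the 10 libraries.

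MT-ND4L, which shares its RNA and 7 bases with MT-ND4, passed in no comparison. It was at 944 and 937 CPM in the control, 1375 and 1092 (InsE), 1008 and 818 (InsF), 955 and 756 (InsG) and 982 and 801 (InsH). In every line the first value, that of replicate 1, was the higher, by 0.29 to 0.34 on the log2 scale. The control replicates differed by 0.01.

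That split between replicates recurred across mtDNA genes in the lines and was smaller in the control. Replicate 2 over replicate 1, on the log2 CPM scale, lay between -0.25 and -0.21 in the 4 lines for MT-ATP8 and between -0.09 and -0.08 for MT-ND2. It lay between 0.21 and 0.23 for MT-ND6, between 0.12 and 0.14 for MT-ND5, between 0.11 and 0.14 for MT-ND1, and between 0.13 and 0.15 for MT-CO2. For MT-ND3 and MT-CO3 it stayed between 0.01 and 0.07. In the control the 13 genes ran from -0.05 to 0.05. The mtDNA tRNA rows moved with it: MT-TA had 0 counts in replicate 1 of all 4 lines and 9 to 35 in the other 6 libraries. The replicates also differ in depth in every group, the control included. What sets them apart was not tested.

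Complex III has 1 mtDNA-encoded subunit, cytochrome b, which carries the b-type haem groups of the enzyme. Its gene MT-CYB was at 2933 and 2850 CPM in the control, 3077 and 3247 (InsE), 2483 and 2606 (InsF), 2361 and 2500 (InsG) and 2450 and 2589 (InsH). InsE lay above the control and the other lines below it. The log2 fold changes were -0.18 ± 0.05, -0.25 ± 0.05 and -0.20 ± 0.05 in InsF, InsG and InsH (edgeR adjusted p = 0.0300, 0.00865 and 0.0254), and 0.13 ± 0.05 in InsE did not pass (0.101). Each of these calls was lost without control replicate 1 or the line's replicate 1, those in InsF and InsH also without control replicate 2 (edgeR adjusted p up to 0.187). The call among the lines (edgeR adjusted p = 0.00313) passed without any 1 library.

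In complex IV, MT-CO3 fell by a similar amount in InsF, InsG and InsH. MT-CO3, a core subunit without metal centres, was at 2826 and 2749 CPM in the control, 2854 and 2978 (InsE), 1923 and 1988 (InsF), 1910 and 2005 (InsG) and 1933 and 1955 (InsH). Both InsE libraries lay above the control and the 6 others well below it. The log2 fold changes were -0.51 ± 0.04, -0.51 ± 0.04 and -0.52 ± 0.04 in InsF, InsG and InsH, with edgeR adjusted p of 6.39e-05, 8.04e-05 and 7.36e-05, and these calls passed without any 1 library. InsE differed from control by 0.06 ± 0.04 (edgeR adjusted p = 0.333), and the difference among the lines had an adjusted p of 5.69e-05.

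MT-CO1, the subunit that holds the oxygen-binding site, was at 4522 and 4438 CPM in the control, 4909 and 5011 in InsE, and 3636 to 3938 in the other 6 libraries. It moved in the directions of MT-ND4, with log2 fold changes of 0.15 ± 0.04 (InsE), -0.20 ± 0.04 (InsF), -0.28 ± 0.04 (InsG) and -0.26 ± 0.04 (InsH), all called (largest edgeR adjusted p = 0.0224). The rise in InsE was lost without either InsE or either control library (edgeR adjusted p up to 0.167) and the fall in InsF without control replicate 1 (0.0689). MT-CO2, which takes electrons from cytochrome c, was called in InsG alone among single lines (-0.29 ± 0.07), and that call was lost without InsG replicate 1 or either control library (edgeR adjusted p up to 0.128).

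Of the mtDNA genes of complex V, MT-ATP6 rose in InsE and MT-ATP8 passed in no comparison. MT-ATP6, the proton channel subunit, was at 2957 and 2888 CPM in the control, 3216 and 3287 in InsE, and 2650 to 2814 in the others. It rose in InsE (0.15 ± 0.04, edgeR adjusted p = 0.0211), a call lost without either InsE or either control library (adjusted p up to 0.166). MT-ATP8, whose last 46 bases are also the first of MT-ATP6, was at 513 and 531 CPM in the control and at 485 to 678 in the lines. Its log2 fold changes ran from 0.00 ± 0.11 in InsH to 0.26 ± 0.11 in InsE. Reads in the shared bases can be given to either gene.

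The rRNAs of mtDNA, which belong to no complex, fell in InsF, InsG and InsH. MT-RNR1, the small ribosomal RNA, was at 691 and 689 CPM in the control, 658 and 620 in InsE, and 350 to 417 in the other 6 libraries. Its log2 fold changes were -0.80 ± 0.07, -0.89 ± 0.07 and -0.92 ± 0.07 in InsF, InsG and InsH, larger in size than that of any mtDNA-encoded mRNA, and -0.11 ± 0.07 in InsE (edgeR adjusted p = 0.252). MT-RNR2, the large ribosomal RNA, fell in the same 3 lines (-0.32 ± 0.09, -0.30 ± 0.09 and -0.37 ± 0.09). Its calls in these lines were each lost without 3 of the libraries, the line's replicate 2 among them (edgeR adjusted p up to 0.171), while those of MT-RNR1 passed without any 1 library. RNA selected by poly(A) tail gives only part of the rRNA.

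Among the nuclear members rises were called more often than falls, and the medians stayed between -0.02 and 0.10. With the replicate number as a block there were more calls of both kinds: 31 up and 4 down in InsE, 19 and 5 in InsF, 18 and 13 in InsG, 15 and 5 in InsH, and 26 and 10 in the mean. Over all 15554 genes this fit called 2866 up and 3069 down in InsE, 2851 and 3035 in InsF, and 2862 and 2907 in InsG. It called 2580 and 2737 in InsH, and 3200 and 3479 in the mean. The block gives every group the same shift, which the control replicates did not share. Of 87, 80 passed the filter on low counts, and the calls that follow are without the block. In InsE 16 of the 80 rose (10.8% of all genes tested were called higher) with a median log2 fold change of 0.10. In InsF 7 rose (background 10.9%, median 0.06), and in InsH 5 rose (background 8.95%, median 0.04). In InsG 7 rose (background 9.86%) and 3 fell (background 10.5%), with a median of -0.02. In the mean of the lines 14 rose (background 13.1%) and 1 fell, with a median of 0.04. Among the 4 lines 4 of the 80 differed (NDUFS6, COX8A, ATP5D and ATP5H, the last named after its values were seen; each call was lost without 1 library or another), against 10 of the 13 mtDNA genes and 13.2% of all genes. With the block, 22 of the 80 and 12 of the 13 mtDNA genes differed among the lines. The count over all genes for that test is not given here. Without the block, the shares of nuclear members called higher in InsF, InsG and InsH, 8.75%, 8.75% and 6.25%, lay below the background. That in InsE was 20.0%.

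Few of these calls survive the loss of a library. Leaving out each library in turn, NDUFA2 in InsE, ATP5G1 in InsF, and NDUFA2 and ATP5G1 in the mean passed in every fit. Without control replicate 1, 3 of the 16 calls in InsE, 2 of 7 in InsF, 2 of 5 in InsH and 2 of 15 in the mean passed, and without control replicate 2 it was 5, 1, 0 and 2. None of the 10 calls in InsG passed without control replicate 1, control replicate 2 or InsG replicate 1 (11, 13 and 11 nuclear members were then at an unadjusted p under 0.05, and 7 in InsH without control replicate 2). With library sizes alone as scaling, the nuclear calls were 27 in InsE and 11 up and 2 down in InsG, and over all genes the called share that was higher moved from 46.4% to 60.1% (InsE), 49.1% to 62.3% (InsF), 48.5% to 64.2% (InsG) and 48.6% to 64.7% (InsH).

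**Figure D3:**
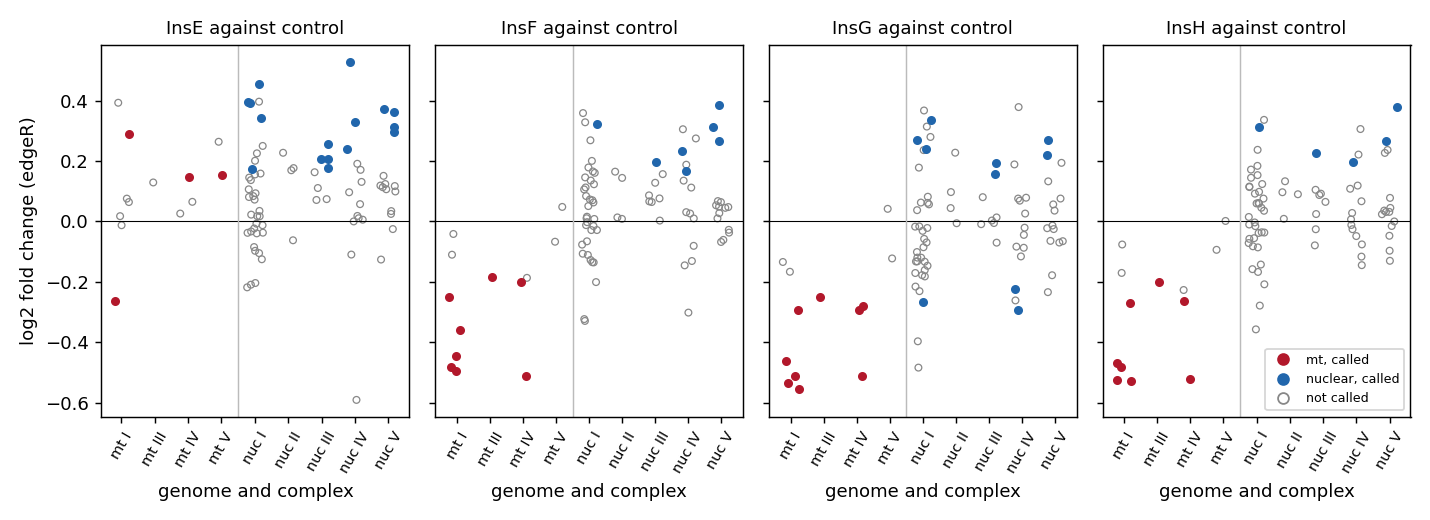
Log2 fold change against control (y axis) of each tested member in each line (panels), by genome and complex (x axis, mt for mtDNA-encoded and nuc for nuclear); filled points were called at an edgeR adjusted p under 0.05 and open points were not. The plot holds 90 genes and leaves out UQCRHL, ATP5S and ATP5SL; called mtDNA genes lie below 0 in InsF, InsG and InsH, and called nuclear genes lie above 0 except for 3 in InsG.

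Nuclear promoters are printed to show what sits just before the RefSeq start of 4 of the members that rose in 3 or 4 lines. Each stretch is the 120 bases before the gene's start in the RefSeq table (GRCh38.p14), 5′ to 3′ on the gene's strand. In GENCODE 29 the stretches of NDUFA2, UQCRFS1 and ATP5J lie within the gene, which starts at chr5:140647785, chr19:29213541 and chr21:25735673. That of ATP5G1 runs past its start there, chr17:48892765. Capitals mark exact matches, on either strand, to the core NRF1 motif (10 bases, of which 1 may be any base), CCGGAAG (ETS) or AAGATGGC (YY1).
NDUFA2 (chr5:140647631-140647750, minus): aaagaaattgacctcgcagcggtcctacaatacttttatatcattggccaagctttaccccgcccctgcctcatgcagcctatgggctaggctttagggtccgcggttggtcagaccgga
UQCRFS1 (chr19:29213152-29213271, minus): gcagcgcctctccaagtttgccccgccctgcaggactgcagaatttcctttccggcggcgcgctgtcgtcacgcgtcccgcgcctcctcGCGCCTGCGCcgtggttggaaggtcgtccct
ATP5G1 (chr17:48892667-48892786, plus): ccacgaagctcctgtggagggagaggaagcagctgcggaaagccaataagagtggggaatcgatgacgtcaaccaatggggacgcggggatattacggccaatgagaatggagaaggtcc
ATP5J (chr21:25735055-25735174, minus): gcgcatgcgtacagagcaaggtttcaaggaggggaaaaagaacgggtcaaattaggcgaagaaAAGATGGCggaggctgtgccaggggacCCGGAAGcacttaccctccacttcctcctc

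The same letters were counted in the promoters of all nuclear members. The table held 67 of the 87 nuclear members, with 300 bases each (250 before and 50 after the start). The NRF1 letters stood in 16 (23.9%), against 6.28% of all 27305 promoters and 8.58% of those of 15843 protein-coding genes. The ETS letters stood in 19 (28.4%, against 10.7% and 14.2%) and the YY1 letters in 11 (16.4%, against 3.03% and 3.91%). Of the 11 members with a promoter here that rose in the mean of the lines, 1, 4 and 3 held the NRF1, ETS and YY1 letters, against 15, 15 and 8 of the 56 others. A match is a string of letters and not a measured binding site.

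In nuclear complex I, NDUFA2 rose in all 4 lines. NDUFA2, a small accessory subunit of the matrix arm, was at 49.5 and 48.1 CPM in the control, 65.0 and 62.7 (InsE), 60.9 and 61.2 (InsF), 58.5 and 59.1 (InsG) and 59.6 and 61.8 (InsH). All 8 line libraries lay above both controls, and the lines lay close together. The log2 fold changes were 0.39 ± 0.06, 0.32 ± 0.06, 0.27 ± 0.06 and 0.31 ± 0.06 (SE), all called, and 0.32 ± 0.05 in the mean (edgeR adjusted p = 0.000781). The calls in InsF and InsH were lost without control replicate 2 (edgeR adjusted p = 0.0511 and 0.0671), and that in InsG without InsG replicate 1 or either control library (up to 0.106).

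Of the 36 nuclear genes of complex I, 5 (InsE), 1 (InsF), 3 (InsG) and 1 (InsH) rose, and 1 fell in InsG. The shares called higher were 13.9%, 2.78%, 8.33% and 2.78%, against 10.8%, 10.9%, 9.86% and 8.95% of all genes tested. The share called lower in InsG was 2.78%, against 10.5%. NDUFB5, an accessory subunit of the membrane arm, rose in InsE (0.39 ± 0.07) and InsG (0.34 ± 0.07). NDUFB1 and NDUFS4, accessory subunits of the membrane and matrix arms, rose in InsE by 0.45 ± 0.12 and 0.34 ± 0.09. NDUFS1, which carries iron-sulfur clusters in the electron path, rose in InsG (0.24 ± 0.07), the single call among the 7 nuclear core subunits in any line. NDUFS6, a zinc-binding accessory subunit, fell in InsG (-0.27 ± 0.06). The fall of NDUFC2 in the mean of the lines (-0.32 ± 0.10) is uncertain, since a read-through gene, NDUFC2-KCTD14, shares its sequence. Each of these calls was lost without control replicate 1 (edgeR adjusted p of the least favourable library from 0.0573 to 0.229), and all but that of NDUFB5 in InsE were lost without other libraries too, control replicate 2 included.

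In these SDH-intact cells, no gene of complex II was called in any single line. The summed TPM of the 4 genes lay above both controls in every line library. SDHA, the flavoprotein that oxidises succinate, was at 200 and 196 CPM in the control and 199 to 230 in the lines, which overlap it. SDHB, the iron-sulfur subunit, was at 98.1 and 101 CPM in the control and 103 to 115 in the lines, above both controls in all 8. Its log2 fold change in the mean was 0.14 ± 0.05 (edgeR adjusted p = 0.0468), the single call among the 4 SDH genes, and it was lost without 8 of the 10 libraries (adjusted p up to 0.329), all but InsF replicate 2 and InsG replicate 2. The membrane anchors SDHC, at 163 and 159 CPM in the control and 154 to 170 in the lines, and SDHD, at 60.9 and 62.8 and 56.3 to 77.1, overlapped the control. Their log2 fold changes in the mean were -0.01 ± 0.05 and 0.14 ± 0.09.

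Of the 9 nuclear genes of complex III, 4 (InsE), 1 (InsF), 2 (InsG) and 1 (InsH) rose. These are 44.4%, 11.1%, 22.2% and 11.1%, against 10.8%, 10.9%, 9.86% and 8.95% of all genes tested. UQCRFS1, the Rieske iron-sulfur protein, was at 139 and 145 CPM in the control, 172 and 167 (InsE), 166 and 159 (InsF), 167 and 157 (InsG) and 171 and 161 (InsH). Every line library lay above both controls. Its log2 fold changes of 0.26 ± 0.06, 0.20 ± 0.06, 0.19 ± 0.06 and 0.23 ± 0.06 were all called. The calls were lost without 3 to 8 of the libraries, both control libraries included in each line (edgeR adjusted p up to 0.272). In InsE, the core proteins UQCRC1 and UQCRC2 and the hinge protein UQCRH rose by 0.21 ± 0.05, 0.18 ± 0.05 and 0.21 ± 0.05. Each was lost without InsE replicate 1 or either control library (edgeR adjusted p up to 0.186).

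Of the 14 nuclear genes of complex IV that were tested, 3 rose in InsE, 2 in InsF and 1 in InsH, and 2 fell in InsG. The rises are 21.4%, 14.3% and 7.14%, against 10.8%, 10.9% and 8.95% of all genes tested. The falls in InsG are 14.3%, against 10.5%. COX4I1, which regulates the enzyme in response to ATP, rose in InsE (0.24 ± 0.04, lost without control replicate 1 at an edgeR adjusted p of 0.0607) and InsF (0.17 ± 0.04). COX6A1 rose in InsF (0.23 ± 0.06) and InsH (0.20 ± 0.06). COX6B1 and COX5A, which lie on opposite faces of the membrane, fell in InsG, with log2 fold changes of -0.29 ± 0.08 and -0.22 ± 0.06. These 5 calls after the first were lost without either control library (edgeR adjusted p up to 0.198), each also without 1 or more line libraries.

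The largest rise of a nuclear complex IV gene, that of COX6C in InsE (0.53 ± 0.14), came with the split between replicates. COX6C was at 68.9 and 68.5 CPM in the control and at 108 and 88.7 in InsE, and replicate 1 was the higher in all 4 lines. COX7C, another small subunit, was at 92.5 and 98.3 CPM in the control and 127 and 111 in InsE (0.33 ± 0.10). Both calls were lost without InsE replicate 1 or either control library (edgeR adjusted p up to 0.177 and 0.272). On the TPM scale COX7C turned in the mean of the lines, to -0.09. Its effective length, by which TPM divides, was set at 390 to 400 bases in replicate 1 of the lines and at 230 to 248 in the other 6 libraries.

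Tissue-specific forms of complex IV were at or near 0 in these cells. COX6A2, COX7B2 and COX8C had 0 counts in every library, COX4I2 at most 1 and COX6B2 at most 12. Their widely expressed partners ran from 420 to 522 TPM (COX6A1), from 211 to 326 (COX7B), from 799 to 909 (COX8A), from 707 to 827 (COX4I1) and from 232 to 294 (COX6B1). COX7A1, the form of heart and muscle, was present at 15.3 to 53.4 TPM beside 409 to 595 for COX7A2, and NDUFA4L2 at 4.08 to 7.77 TPM beside 52.4 to 61.1 for NDUFA4. NDUFA4L2, known as a hypoxia-induced gene, had a log2 fold change of -0.59 ± 0.19 in InsE (edgeR adjusted p = 0.0538). UQCRHL is an intron-less copy of UQCRH, so its values are uncertain. It was at 8.71 to 10.7 CPM in replicate 1 of the lines and 2.75 to 3.13 in the other 6 libraries, with no call, and what sets these libraries apart was not tested.

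Complex V held the other genes called higher in 3 lines, which encode parts of its c-ring and stalk. Of its 15 nuclear genes tested, 4 (InsE), 3 (InsF), 2 (InsG) and 2 (InsH) rose. These are 26.7%, 20.0%, 13.3% and 13.3%, against 10.8%, 10.9%, 9.86% and 8.95% of all genes tested. ATP5G1, ATP5G2 and ATP5G3 (now ATP5MC1 to ATP5MC3) encode the same mature c subunit. ATP5G1 was at 37.1 and 35.8 CPM in the control, 49.4 and 44.5 (InsE), 47.6 and 47.8 (InsF), 41.2 and 42.4 (InsG) and 47.0 and 47.9 (InsH). All line libraries lay above the control, those of InsG least. The log2 fold change was 0.37 ± 0.07 in InsE, 0.39 ± 0.07 in InsF and 0.38 ± 0.07 in InsH, all called, and 0.19 ± 0.07 in InsG (edgeR adjusted p = 0.0712). The calls in InsE and InsH were lost without InsE replicate 1 (0.0521) and control replicate 2 (0.0598), while that in InsF passed without any 1 library.

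ATP5G3 rose in InsF, InsG and InsH with log2 fold changes of 0.27 ± 0.05, 0.22 ± 0.05 and 0.27 ± 0.05, and stood at 112 and 114 CPM in the control and 124 to 137 in the lines. ATP5G2, the third c-subunit gene, named here after its values were seen, was at 97.5 and 94.6 CPM in the control and 79.4 to 96.0 in the lines, with no call. ATP5J (now ATP5PF), a stalk subunit, rose in InsE, InsF and InsG (0.31 ± 0.08, 0.31 ± 0.08 and 0.27 ± 0.08), with control levels of 276 and 278 CPM and 311 to 359 over the 8 line libraries. ATP5D, a subunit of the central stalk, rose in InsE (0.36 ± 0.09). The ATP5G3 and ATP5J calls were lost without either control library, and those of ATP5J and of ATP5G3 in InsG and InsH also without the line's replicate 1 (edgeR adjusted p up to 0.263). The ATP5D call was lost without InsE replicate 2 or control replicate 1 (edgeR adjusted p up to 0.141).

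**Figure D4:**
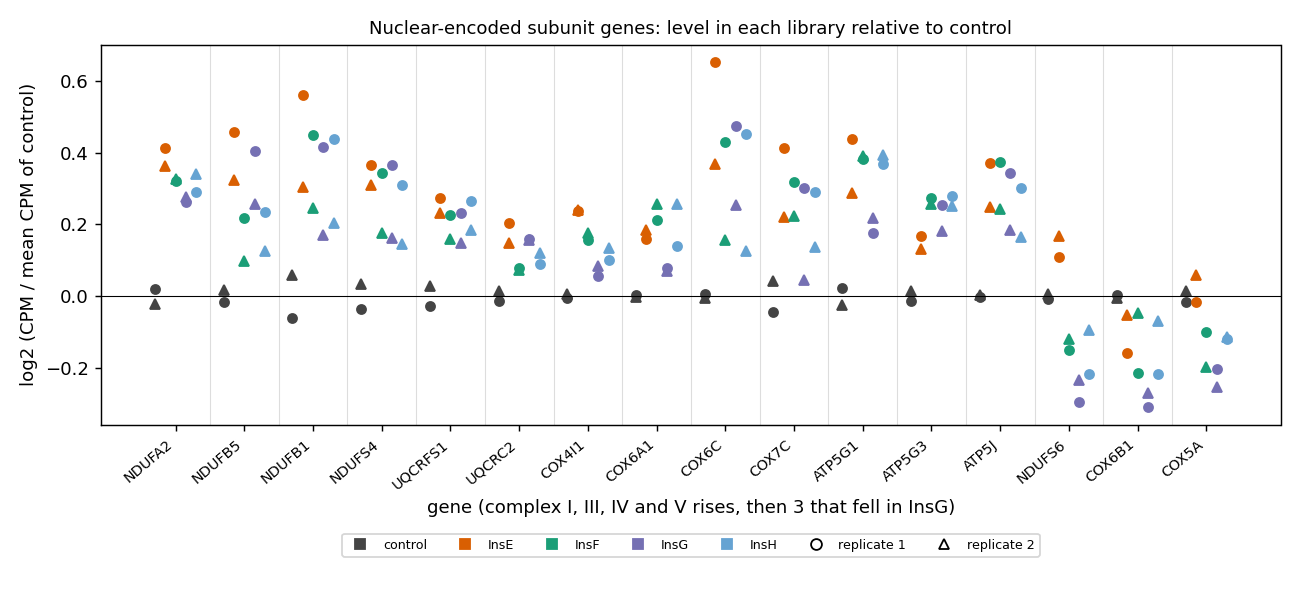
Level of 16 nuclear members in each library as log2 of CPM over the mean CPM of the control (y axis); genes are on the x axis, colours are groups, circles replicate 1 and triangles replicate 2. The first 13 genes lie above both control libraries in all 8 line libraries, replicate 1 is the higher in every line for COX6C and NDUFB1, and NDUFS6, COX6B1 and COX5A are lowest in InsG.

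By summed TPM within complexes I, III and IV, mtDNA-encoded and nuclear mRNA moved apart in InsF, InsG and InsH. On this measure they stayed close to the control balance in InsE. The measure was the log2 ratio of summed TPM, mtDNA-encoded over nuclear, per library, and it carries no test. In complex I it was 2.86 ± 0.03 in the control, and, with n = 2 and SD throughout, 2.93 ± 0.09 (InsE), 2.59 ± 0.10 (InsF), 2.62 ± 0.07 (InsG) and 2.58 ± 0.10 (InsH). Both libraries of InsF, InsG and InsH lay below both controls, by 0.27, 0.24 and 0.28 in the mean. In complex III it was 0.96 ± 0.05 in the control and 0.99 ± 0.01, 0.77 ± 0.00193, 0.73 ± 0.00222 and 0.79 ± 0.00440 in InsE, InsF, InsG and InsH. Both libraries of InsF, InsG and InsH lay below both controls here too. In complex IV it was 2.26 ± 0.02 in the control and 2.27 ± 0.06, 1.99 ± 0.04, 1.996 ± 0.015 and 1.99 ± 0.07 in the same order. The result in InsE depended on the measure. With the median over members, InsE differed from the control by -0.14 in complex I, 0.05 in III, 0.17 in IV and 0.33 in V. In complexes I, III and IV the other lines then differed by -0.45 to -0.24. Without MT-ND4L and MT-ND6, the summed ratio of complex I in InsE differed by -0.05.

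Complex V did not follow this pattern on the TPM scale. Its ratio was 2.43 ± 0.04 in the control, then 2.59 ± 0.10 (InsE), 2.31 ± 0.11 (InsF), 2.45 ± 0.07 (InsG) and 2.36 ± 0.08 (InsH), and InsG and InsH overlapped the control. The sum is dominated by MT-ATP8, at 24171 TPM in the control, whose RSEM effective length was 28.2 to 36.1 bases across libraries for a gene of 207 bases. Without MT-ATP8 the differences from control were 0.02 in InsE and -0.14 in each of InsF, InsG and InsH. With summed expected counts in place of TPM they were 0.04, -0.13, -0.14 and -0.15. Complex II has no mtDNA-encoded subunit, and its nuclear sum was 654 ± 0.431 TPM in the control and 678 ± 2.14, 713 ± 8.54, 710 ± 4.15 and 725 ± 28.4 in InsE, InsF, InsG and InsH. These are 1.04, 1.09, 1.09 and 1.11-fold of the control, and every line library lay above both controls.

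**Figure D5:**
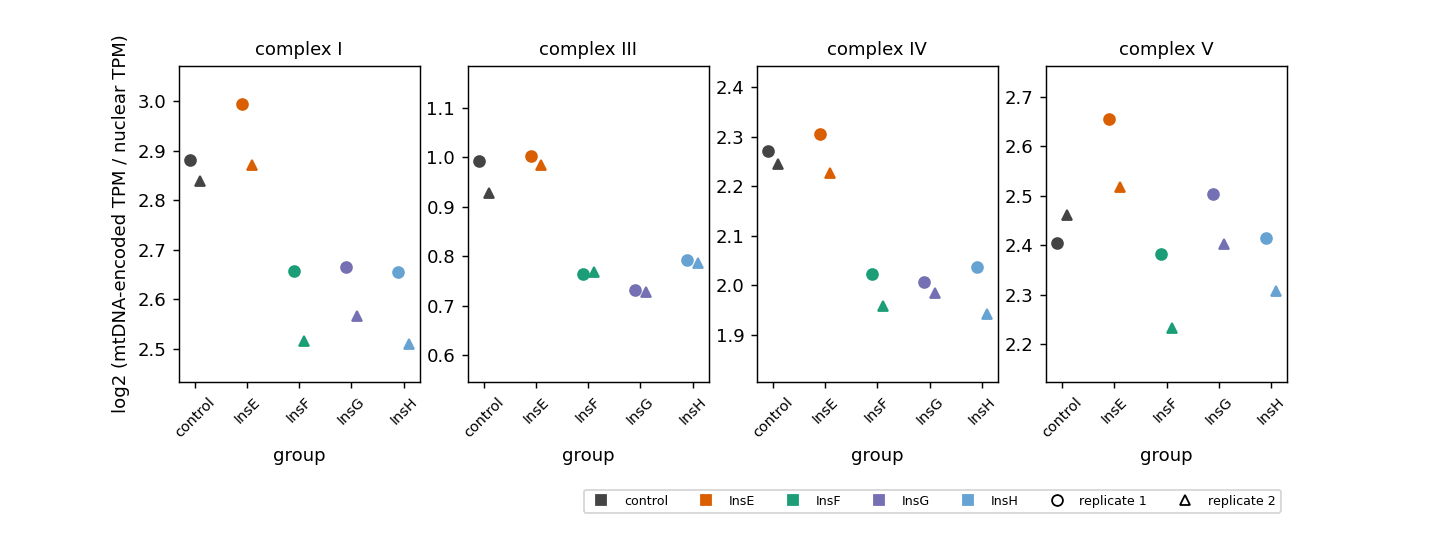
Log2 ratio of summed TPM, mtDNA-encoded over nuclear members (y axes, each spanning the same range), per library in the 4 complexes with subunits of both genomes (panels), by group (x axes); circles are replicate 1 and triangles replicate 2. InsF, InsG and InsH lie below the control in complexes I, III and IV, while in complex V InsE lies above the control, InsF below it, and InsG and InsH overlap it.

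In complexes I, III and IV, the sums behind these ratios were lower on the mtDNA-encoded side in InsF, InsG and InsH. The nuclear sums moved less. Summed mtDNA-encoded TPM stood at 0.862, 0.871 and 0.858-fold of the control in complex I, 0.918, 0.896 and 0.917-fold in complex III and 0.855, 0.835 and 0.842-fold in complex IV, for InsF, InsG and InsH. The nuclear sums of these complexes stood at 1.00 to 1.05-fold, with complex IV in InsG at 1.00. In complex V the mtDNA-encoded sums stood at 1.00, 1.10 and 1.03-fold in InsF, InsG and InsH. Its nuclear sums stood at 1.09, 1.08 and 1.08-fold in the same lines. In the nuclear sum of complex IV, replicate 1 of InsE, InsF, InsG and InsH (4827, 4833, 4729 and 4736 TPM) lay below both controls (4884 and 4889). Replicate 2 of each line lay above them. By gene, the nuclear medians in InsG were -0.06 in complex I and -0.03 in complex IV. In InsE the mean sums of both sides lay above the control in complexes I, III and IV. The mtDNA-encoded sums were 1.09, 1.09 and 1.04-fold and the nuclear sums 1.03, 1.06 and 1.04-fold. Per length, the mtDNA-encoded mRNAs were far above the nuclear ones: the control median was 8324 TPM over 13 mtDNA genes and 175 TPM over 87 nuclear genes.

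Other genes of the pathway were read from lists. Of 23 genes for mtDNA transcription and RNA processing, 2 rose and 3 fell on average over the lines (backgrounds 13.1% higher and 14.5% lower). Both shares of this list lay below those of all genes tested. LRPPRC, which stabilises mtDNA-encoded mRNAs, was at 539 and 542 CPM in the control and 374 to 490 in the lines, all below the control. It fell in InsE, InsF and InsH (-0.44 ± 0.08, -0.33 ± 0.08 and -0.29 ± 0.08) and in the mean (-0.31 ± 0.06). The libraries of InsE held the lowest and the fourth lowest LRPPRC levels of the 10. FASTKD5, which helps to cut mtDNA transcripts that lack a flanking tRNA, fell in InsF, InsG and InsH (-0.35 ± 0.07, -0.45 ± 0.07 and -0.47 ± 0.08) and was at -0.11 ± 0.07 in InsE (edgeR adjusted p = 0.346). PNPT1, an RNA-degrading enzyme, fell in the mean (-0.21 ± 0.07), and REXO2, an exonuclease for short RNA, rose (0.20 ± 0.06).

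Of 11 genes for mtDNA replication and nucleotide supply, 3 rose and 2 fell in the mean (backgrounds 13.1% higher and 14.5% lower). POLG, the mtDNA polymerase, fell in all 4 lines (-0.32 ± 0.05 in the mean), and so did the ligase LIG3 (-0.37 ± 0.06). TK2, the mitochondrial thymidine kinase, rose in all 4 (0.43 ± 0.07). RRM2B, a ribonucleotide reductase subunit, rose in InsG (0.56, edgeR adjusted p = 0.00344) and in the mean (0.33 ± 0.08). Of 11 tested nuclear regulators 2 rose and 2 fell in the mean, with the same backgrounds. PPARGC1B, a coactivator of mitochondrial genes, was at 20.8 and 20.6 CPM in the control, 15.2 and 16.3 in InsE, and 8.67 to 11.8 in the other 6 libraries. It fell in all 4 lines (-0.40 ± 0.12, -1.15 ± 0.12, -0.90 ± 0.12 and -1.04 ± 0.12), and differed among lines at an edgeR adjusted p of 0.0118, a call that was lost without 2 of the libraries, InsE replicate 1 among them (0.0904). PPRC1, a related coactivator, fell in all 4 (-0.36 ± 0.07 in the mean), while GABPA, the DNA-binding subunit of GABP, and ESRRA, the receptor partner of these coactivators, rose in the mean (0.28 ± 0.08 and 0.18 ± 0.05). Of the calls in single lines named in these lists, LRPPRC in InsE and FASTKD5 in InsG and InsH passed without any 1 library. So did TK2 in InsF, RRM2B in InsG, and PPARGC1B in InsF, InsG and InsH. The others were lost without 1 to 6 libraries (edgeR adjusted p up to 0.280).

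In the lists of assembly factors and carriers, the shares called higher are to be read against a background of 13.1%, and each call named here was lost without at least 1 control library. In the mean of the lines 3 of 15 complex I factors rose (NUBPL, TIMMDC1 and FOXRED1, by 0.35 ± 0.06, 0.28 ± 0.07 and 0.23 ± 0.05), 2 of 5 complex III factors rose (LYRM7 and UQCC1), and of 20 complex IV factors 3 rose (SCO1, PET117 and CMC2) and 1 fell (COA7). Of 24 other subunits, electron carriers and coenzyme Q genes, 5 rose, among them COQ10B, COQ7, DHODH and COQ5 (0.35 ± 0.08, 0.27 ± 0.07, 0.27 ± 0.07 and 0.24 ± 0.07). The 4 factors of complex II and 3 of complex V had medians of -0.12 and 0.03, with no call. Of 15 genes that mark mitochondrial mass 1 rose (PHB, 0.17 ± 0.04) and 2 fell (HSPD1 and CS, -0.18 ± 0.06 and -0.17 ± 0.05), and of 77 mitochondrial ribosome proteins 8 rose and 8 fell. The background of lower calls in the mean was 14.5%. Of the 38 named genes of all lists that were called in the mean, 7 passed without any 1 library: POLG, PPARGC1B, MT-RNR1, KIT, ANO1, PRKCQ and FOXF1. The others were lost without control replicate 1, control replicate 2 or both (edgeR adjusted p up to 0.319).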

How the data were processed

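Polyadenylated RNA of 10 libraries was sequenced. The submitters' processing notes name STAR 2.5.3, RSEM 1.3.2, DESeq2 1.38.3 and hg38, with annotation release and strand setting not given in the sources used here. Per library and gene, the authors deposited expected counts, TPM and effective lengths. A further table had 10 value columns without a matching label and was not used.

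Expected counts were rounded and tested with edgeR 4.0.16 (R 4.3.3; quasi-likelihood, robust, TMM scaling, filterByExpr with a minimum count of 10) in 1 fit of all libraries (5 residual degrees of freedom). The two-sided p-values were adjusted by Benjamini-Hochberg over 15554 genes and called under 0.05. The steps were tested on simulated data. Alternatives used DESeq2 1.42.0 and limma 3.58.1 on log2(TPM + 1). Ratios of summed TPM have no test.

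The members and lists were chosen with earlier results of these data known. The text names all mtDNA-encoded and SDH genes, the alternative isoforms, and per complex and comparison up to 3 called nuclear members that rose most and 3 that fell most, at a mean log2 CPM of at least 1. From each list it names up to 4 called genes with the largest change in the mean of the lines. Exceptions are marked.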

Additional observations from a re-analysis of the deposited data

Results flagged for a closer look

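The genes below differed among the 4 lines in edgeR's test of any difference, adjusted over all genes tested, so that their change against the control was not the same in every line. Of the mtDNA-encoded mRNAs these were MT-ND4 (adjusted p = 2.39e-05), MT-CO3 (5.69e-05), MT-CO1 (0.000222), MT-ND5 (0.00154), MT-CYB (0.00313), MT-ND1 (0.00336), MT-ATP6 (0.00425), MT-ND6 (0.00872), MT-ND3 (0.00936) and MT-ND2 (0.0392). The calls of MT-ND2, MT-ND3 and MT-ND6 were lost without 7, 2 and 1 of the libraries. Of the mtDNA rRNAs both differed, MT-RNR1 (adjusted p = 0.000104) and MT-RNR2 (0.0202), the second lost without 3 libraries. The nuclear members were NDUFS6 (0.00704), ATP5H (0.0269), ATP5D (0.0320) and COX8A (0.0432), each lost without at least 1 library. Of the listed genes outside the chain, PPARGC1B (0.0118), FASTKD5 (0.0315) and HSPD1 (0.0443) differed among the lines in the same edgeR test, and these calls were lost without 2, 6 and 6 of the libraries.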

How the results depend on the processing

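The count of nuclear members called depended on the setting more than that of mtDNA-encoded members. With library sizes alone, 27 nuclear members were called in InsE, 13 in InsF and 10 in InsH. Without the low-count filter 12, 17 and 10 were called (InsF, InsG, InsH). With limma on log2(TPM + 1), 5 were called in InsE, 5 in InsG and 0 among the lines (9 at an unadjusted p under 0.05, against 4 called by edgeR), and 4 mtDNA-encoded members in the mean. DESeq2 called 2 nuclear members among the lines. Leaving out 1 library at a time gave 3 to 17 nuclear calls in InsE, 1 to 9 in InsF, 0 to 10 in InsG, 0 to 5 in InsH, 2 to 16 in the mean and 0 to 2 among the lines (0 without either InsE library, with 10 at an unadjusted p under 0.05 each time). For mtDNA-encoded members it gave 2 to 4 in InsE, 5 to 8 in InsF, 6 to 10 in InsG, 6 to 10 in InsH, 4 to 9 in the mean and 7 to 11 among the lines. The cause of these shifts was not tested.

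With the replicate number as a replicate block, nuclear calls numbered 35 in InsE, 24 in InsF, 31 in InsG, 20 in InsH, 36 in the mean and 22 among the lines, and mtDNA-encoded calls in InsE numbered 7. Over all 15554 genes this fit called 5935 in InsE, 5886 in InsF, 5769 in InsG, 5317 in InsH and 6679 in the mean. Its count among the lines over all genes is not given here. Of the nuclear calls, 4 (InsE), 5 (InsF), 13 (InsG), 5 (InsH) and 10 (mean) were falls. Deviations of same-numbered libraries correlated at 0.595 to 0.662 between every pair of lines, and at 0.0233 to 0.0739 between the control and a line. The lines thus share a deviation by number that the control does not, and the labels do not say what a number marks. The block gives every group the same shift, so it does not match the control in the comparisons with it.

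The log2 ratios of mtDNA-encoded to nuclear TPM, mean of the lines minus control, were -0.18 in complex I, -0.14 in complex III, -0.20 in complex IV and -0.0057 in complex V. With the median over members they were -0.287 in complex I, -0.221 in complex III and 0.126 in complex V. With summed expected counts they were -0.228 in complex III, -0.280 in complex IV and -0.0936 in complex V, and without MT-ND4L, MT-ATP8 and MT-ND6 the ratio of complex V was -0.101. Complex III ran from -0.172 to -0.108 without 1 library. Counting NDUFA4 and NDUFA4L2 in complex I, chosen after seeing the data, gave -0.180 in complex I and -0.198 in complex IV. The summed mtDNA-encoded level was -0.0591 on the TPM scale and -0.120 as a share of counts.

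In the mean of the lines MT-ATP6 turned to 0.0225 with library sizes alone and 0.0194 with limma, and COX7C to -0.0887 with limma. MT-ND4L turned to -0.0127, -0.00642, -0.0130 and -0.00555 without replicate 1 of InsE, InsF, InsG and InsH, and reached 0.0719 without InsG replicate 2. Of the other single-gene values 382 kept their side of the threshold, 85 no longer passed and 2 newly passed.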
